A study of Mus musculus with 4 samples.

Results

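The genes described here mark the output neurons of the striatum, the medium spiny neurons, and were taken as a fixed list of 8 protein-coding genes out of 21631 on chromosomes 1 to 19 and X. The 4 D2-type genes were Drd2, Penk, Adora2a and Gpr6, and the 4 D1-type genes were Drd1, Tac1, Isl1 and Ebf1. For each gene, all called regions in the gene and within 50 kb of either end (mm10) were collected. Binding of Six3 had been profiled by CUT&RUN, in which an antibody directs a nuclease to a bound protein and the released DNA is sequenced. The cells were primary mouse neural stem cells, labelled WT, that overexpressed Six3 and had been moved from growth factors to neurobasal medium with B-27 for 3 h of neural differentiation, per the labels. The series held 3 libraries labelled Six3 flag and 1 IgG library, and the cells of all 4 carried the same labels. The deposited table gave regions with a highest and a summed coverage signal, without a column for any single library, so Six3 flag was not set against IgG, no value has a replicate error, no test over samples could be made, and the depth per library is unknown. The labels name neither the brain region of the stem cells nor the clone, and the cells are not striatal neurons. The assay gives no RNA level, so neither the labelled cell type nor the expression of these genes was checked.

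Medium spiny neurons are inhibitory projection neurons that arise from progenitors of the lateral ganglionic eminence and fall into 2 main kinds. Neurons of the indirect pathway carry the dopamine D2 receptor (Drd2), the opioid peptide precursor proenkephalin (Penk), the adenosine A2a receptor (Adora2a) and the orphan receptor Gpr6. Neurons of the direct pathway carry the dopamine D1 receptor (Drd1) and the precursor of substance P (Tac1), and the transcription factors Isl1 and Ebf1 act in their differentiation. The homeodomain protein Six3 acts in forebrain development, and it is needed for D2-type neurons to form in the mouse. The comparison of D2-type with D1-type genes asks whether called regions lay differently at the 2 classes.

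For all but 3 regions, none of them at the 8 genes, the highest signal could be divided without remainder by 1.9 alone or by 0.48 alone. The 945651 regions of the first kind are called the 1.9-step set and the 632860 of the second kind the 0.48-step set. The sets may come from separately scaled coverage, so their signals are not compared. The lowest regions stood at 2 steps in both sets, or signals of 3.8 and 0.96. All signals are the authors' own scores.

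Upstream sequence is shown for 1 listed start each of Drd2, Gpr6, Drd1, Tac1 and Ebf1. It comes from the RefSeq promoter table of GRCm38.p6, which has the coordinates of mm10. The table listed at least 1 start for 6 of the 8 genes, and had no entry for Penk or Adora2a. Each sequence is the 250 bases before the start, read 5′ to 3′ on the strand of the gene. Capitals mark ATTA or TAAT, the core contacted by many homeodomains. The D2-type genes Drd2 and Gpr6 had no 1.9-step region within 1 kb of their listed start. The second listed start of Ebf1 lay under a region, and Tac1 had a region just upstream of the printed bases. No region lay over the printed bases of Drd1. The window of the other Drd1 start, with 177 of its 250 bases under a region of 3.8, is not printed.
Drd2 (chr9:49340153-49340402, plus strand): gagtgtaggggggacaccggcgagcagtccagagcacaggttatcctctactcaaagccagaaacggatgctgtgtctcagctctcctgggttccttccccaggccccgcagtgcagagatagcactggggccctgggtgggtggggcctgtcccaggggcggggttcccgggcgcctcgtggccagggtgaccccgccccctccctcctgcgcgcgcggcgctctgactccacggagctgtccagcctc
Gpr6 (chr10:41072291-41072540, minus strand): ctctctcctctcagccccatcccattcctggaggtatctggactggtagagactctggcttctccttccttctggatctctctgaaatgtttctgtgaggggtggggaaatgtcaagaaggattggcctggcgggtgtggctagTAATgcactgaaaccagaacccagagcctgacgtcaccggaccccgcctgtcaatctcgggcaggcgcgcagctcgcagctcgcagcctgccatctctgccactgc
Drd1, upstream start (chr13:54055659-54055908, minus strand): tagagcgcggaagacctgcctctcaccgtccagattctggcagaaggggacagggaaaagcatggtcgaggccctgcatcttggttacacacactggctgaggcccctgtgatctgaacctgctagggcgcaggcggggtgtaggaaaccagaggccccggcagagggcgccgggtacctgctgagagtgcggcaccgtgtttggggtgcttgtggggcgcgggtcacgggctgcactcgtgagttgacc
Tac1 (chr6:7554811-7555060, plus strand): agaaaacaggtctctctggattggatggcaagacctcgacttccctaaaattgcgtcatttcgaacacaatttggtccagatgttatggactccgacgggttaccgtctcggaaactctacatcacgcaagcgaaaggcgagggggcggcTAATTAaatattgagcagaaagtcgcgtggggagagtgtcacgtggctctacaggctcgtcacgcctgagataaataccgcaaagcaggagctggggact
Ebf1, second start (chr11:44619978-44620227, plus strand): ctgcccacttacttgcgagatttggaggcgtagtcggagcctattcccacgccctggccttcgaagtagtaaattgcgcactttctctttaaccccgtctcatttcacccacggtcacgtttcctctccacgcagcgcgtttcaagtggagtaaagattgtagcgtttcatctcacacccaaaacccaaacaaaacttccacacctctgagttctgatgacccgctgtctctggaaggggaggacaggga

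Of the 8 upstream windows listed for the 6 genes, 4 held ATTA or its reverse complement TAAT, against 49.3% of 21045 windows of the same length at protein-coding genes. They belonged to Gpr6, Tac1, Isl1 and the first listed start of Ebf1. The palindrome TAATTA, 2 overlapping copies of the core, was found in the Tac1 window alone, 100 bases before its start, against 4.24% of all windows. The sequence TGATAC or its reverse complement GTATCA, which homeodomains related to that of Six3 are known to prefer, was in 0 of the 8 windows, against 3.91% of all windows. The window under the Ebf1 region held none of these letters. GC content was 68.8% at Drd2 and 58.4% at Gpr6, against 64.0% at the upstream start of Drd1, 60.8% at the other start of Drd1, 51.2% at Tac1, 71.2% at Isl1 and 40.0 and 52.0% at the starts of Ebf1.

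The 8 genes together held 840 regions, 322 around the D2-type and 518 around the D1-type genes, and each gene had regions of both sets inside it or in its flanks. Ebf1 alone, a gene of 390 kb, gave 282 of them, so counts are set per Mb of gene plus flanks below. Per gene, 1.9-step regions covered 17.5 to 23.6% of the bases and 0.48-step regions 3.66 to 7.82%. Over all protein-coding genes the medians were 20.5% and 5.72%. Coverage at the 8 genes thus lay on both sides of the genome-wide median in each set.

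**Figure D1:**
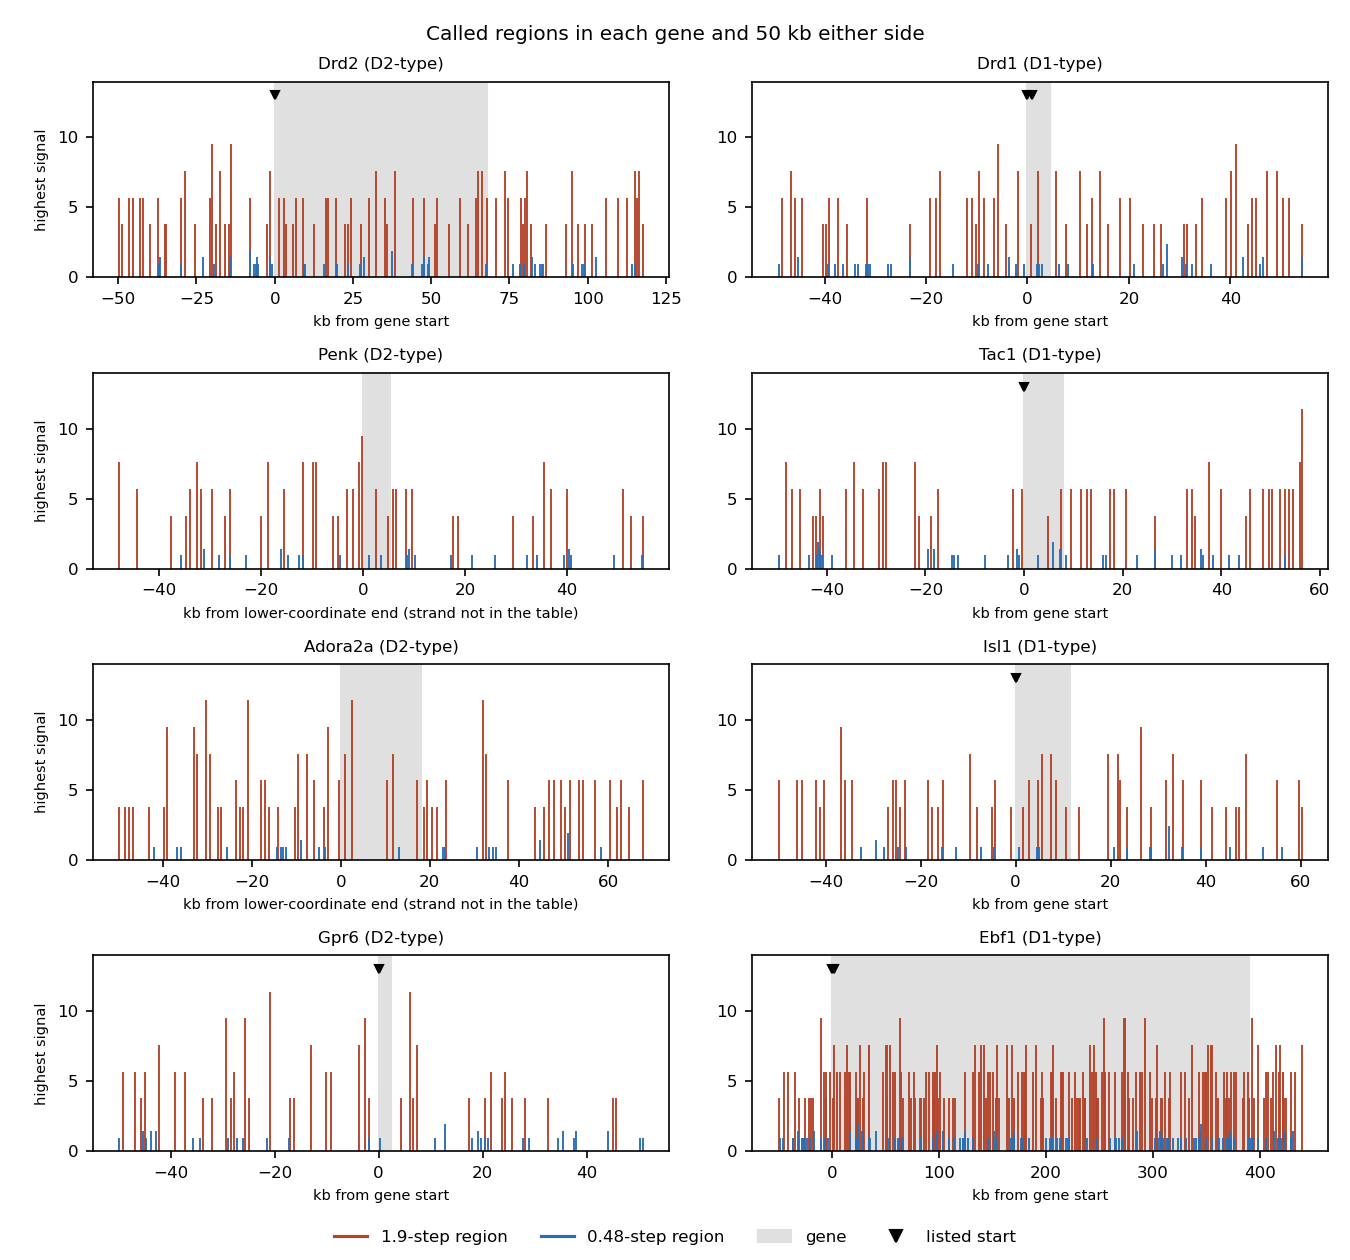
Called regions along each gene, with D2-type genes in the left and D1-type genes in the right column. The x axis gives kb from the outermost listed start in the direction of transcription (for Penk and Adora2a, kb from the end with the lower coordinate), the y axis gives the highest signal of each region, grey marks the gene and triangles the listed starts. No gene had a region above 11.4, and regions of that height are seen around Adora2a, Gpr6 and Tac1.

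Drd2, the receptor that gives the D2 class its name, lies on chromosome 9 (49340360 to 49408177). It had 74 of the 1.9-step regions and 41 of the 0.48-step regions, or 441 and 244 per Mb, against medians of 410.0 and 256.8 per Mb over 2163 genes of similar length. Its 2 tallest regions, with a highest signal of 9.5, lay 19.6 and 13.9 kb upstream of the start. The region with the largest summed signal, 4499.2 signal times bp, was 1086 bp wide, reached 7.6 and ended 1083 bp upstream of the start. At the start itself the nearest 1.9-step region began 1081 bp downstream and reached 5.7, so a gap of that set spanned the start. Within 1 kb of it lay 1 region, of the 0.48-step set and of its lowest height. At the other end of the gene a region of 5.7 lay over the end and a region of 7.6 ended 926 bp inside it. Neighbouring genes lie in the downstream flank, Ankk1 with 6 and Ttc12 with 10 of the 1.9-step regions.

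Penk, which encodes the precursor of the enkephalins, lies on chromosome 4 (4133536 to 4138815) with no other protein-coding gene in its flanks. It had 38 of the 1.9-step regions and 25 of the 0.48-step regions, or 361 and 237 per Mb, both below the medians of genes of similar length, 408.4 and 254.7 per Mb. Its single region of 9.5, at 4133057 to 4133816, lay over the end with the lower coordinate and had the largest summed signal of the gene, 4151.5. A region of 7.6 lay 590 bp outside that end. At the opposite end the regions within 1 kb were lower, 1 of 3.8 that ended 111 bp inside the gene and 2 of 5.7 that lay 449 and 954 bp outside it. The strand of Penk is not in the tables used here, so it is not said which of these ends is the start.

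Adora2a, a receptor concentrated in indirect-pathway neurons, lies on chromosome 10 (75316877 to 75334792). It had the most contrasting values of the 8 genes, with 56 of the 1.9-step regions and 21 of the 0.48-step regions. Its 1.9-step density of 475 per Mb stood above the median of 408.1 for genes of similar length, and its 0.48-step density of 178 per Mb was the lowest of the 8, against a median of 255.6. It had 7 regions of 9.5 or more, 4 of them at 11.4. One of these lay inside the gene at 75318821 to 75319816, 1.94 kb from the end with the lower coordinate, and had a summed signal of 4240.8. Another lay 13.7 kb outside the opposite end. The other two at 11.4, and 2 of the 3 at 9.5, were inside the neighbouring gene Specc1l, which held 25 of the 56 regions. A region of 5.7 lay over the lower-coordinate end of Adora2a itself. Its strand is not in the tables used here either.

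Gpr6, an orphan receptor, is a short gene on chromosome 10 (41069977 to 41072290) without a protein-coding neighbour in its flanks. It was the only one of the 8 with no 1.9-step region inside the gene, which is 2.31 kb long. Its flanks held 37 of the 1.9-step regions and 29 of the 0.48-step regions, and 1 more 0.48-step region lay inside the gene, 147 bp downstream of the start. The densities were 362 and 293 per Mb, against medians of 404.9 and 250.8 per Mb for genes of similar length. The nearest 1.9-step region was 1634 bp upstream of the start and of the lowest height, 3.8, and regions of 9.5 and 7.6 followed at 2252 and 3610 bp upstream. Of its 5 regions of 9.5 or more, 4 lay upstream between 2.25 and 28.9 kb from the start and 1 lay 5.78 kb downstream of the start, beyond the gene. The tallest were those at 20.7 kb upstream and 5.78 kb downstream, both 11.4.

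Drd1, the receptor of the direct pathway, lies on chromosome 13 (54051183 to 54055658) and had the highest density of the 8 genes in both sets. It had 52 of the 1.9-step regions and 36 of the 0.48-step regions, or 498 and 345 per Mb, against medians of 407.9 and 254.9 for genes of similar length. The table lists 2 starts, at 54055658 and 54054780. A 1.9-step region of 3.8 lay between them and ended 74 bp upstream of the second, where it covered 177 of the 250 bases before that start. A region of 7.6 lay 969 bp downstream of the second start and was overlapped by a 0.48-step region, and another of 7.6 lay 1422 bp upstream of the first. Its 2 regions of 9.5 were 5.62 kb upstream of the first start and 39.9 kb downstream of the second. The neighbour Sfxn1, a mitochondrial carrier gene, held 14 of the 1.9-step and 13 of the 0.48-step regions. The 500 kb bin around Drd1 was also the richest of the 8 in 1.9-step regions, at 1.33 times the autosomal median, against 0.942 to 1.21 times for the other 7. The median bin of chromosome 13, which holds Drd1 and Isl1, stood at 1.12 times the autosomal median, against 0.984 to 1.04 for the chromosomes of the other 6 genes. The part of these wider levels in the values of Drd1 and Isl1 was not tested.

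Tac1, which encodes the precursor of substance P, lies on chromosome 6 (7555061 to 7562978) without a protein-coding neighbour in its flanks. It had 45 of the 1.9-step regions, 417 per Mb against a median of 410.1, and 32 of the 0.48-step set, 297 per Mb against 255.3. A 1.9-step region of 5.7, at 7554449 to 7554741, ended 320 bp upstream of the start, and a 0.48-step region of 0.96 ended 895 bp upstream. The nearest region of 7.6 was much farther, 22.1 kb upstream. Its single region of 11.4 lay 48.2 kb beyond the downstream end, near the limit of the flank. Tac1 was thus the gene with a moderate region beside its start and no tall one near it.

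Isl1, a LIM homeodomain factor, lies on chromosome 13 (116298270 to 116309688) without a protein-coding neighbour in its flanks. It had 49 of the 1.9-step regions, 440 per Mb against a median of 412.4, and 22 of the 0.48-step set, 197 per Mb against 256.1. Within 1 kb of its start lay a 1.9-step region of the lowest height, 3.8, 837 bp upstream, and a 0.48-step region 629 bp downstream. The regions of 7.6 nearest to the start were 5.23 and 7.22 kb downstream, inside the gene. The 2 regions of 9.5 lay 36.3 kb upstream and 26.3 kb downstream of the start, both outside the gene.

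Ebf1, a transcription factor of the direct pathway and of other lineages such as B cells, is the longest of the 8 (chromosome 11, 44618100 to 45008096). It had 175 of the 1.9-step regions and 107 of the 0.48-step regions, or 357 and 218 per Mb, against medians of 397.6 and 256.5 for genes of 109 to 1375 kb. Its 1.9-step density was the lowest of the 8. At the second of its listed starts, 44620228, lay the only 1.9-step region over a listed start, so the count was 0 of 2 D2-type and 1 of 4 D1-type genes, against 24.1% of the 17274 genes with a listed start. That region, at 44619978 to 44620539, reached 7.6 and covered all 250 bases printed above. The first listed start, 44618100, had no region within 1 kb, and the nearest began 1041 bp downstream with a signal of 3.8. Of its 7 regions of 9.5, 5 lay inside the gene, between 61.6 and 291 kb downstream of the second start, and the other two 9.53 kb upstream of the first start and 2.40 kb beyond the opposite end.

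**Figure D2:**
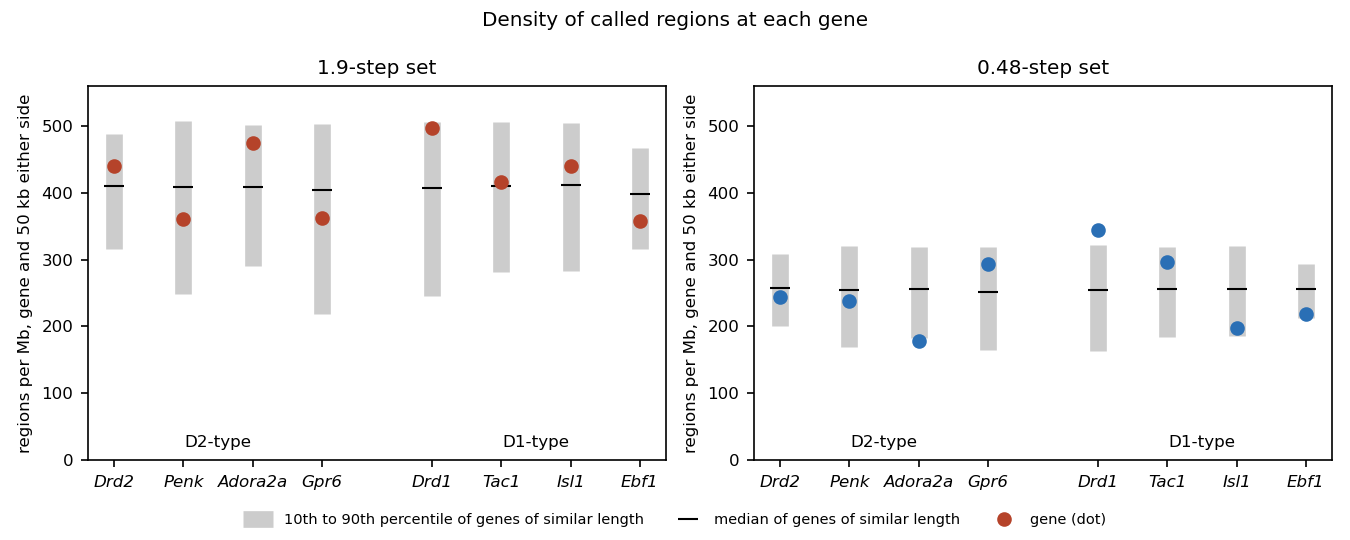
Regions per Mb in each gene and 50 kb either side (dots), for the 1.9-step set on the left and the 0.48-step set on the right, with D2-type before D1-type genes. Grey bars run from the 10th to the 90th percentile of the 2163 genes of similar length and black marks are their medians. In the 0.48-step set Drd1 lay above its bar, at 345 per Mb, and Adora2a below its bar, at 178 per Mb.

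The density ranges of the D2-type and D1-type genes overlapped, and the gap between their medians depended on which genes and flanks entered. The 4 D2-type genes had 361 to 475 of the 1.9-step regions per Mb with a median of 401, and the 4 D1-type genes had 357 to 498 with a median of 428. In the 0.48-step set the D2-type genes had 178 to 293 per Mb with a median of 241, and the D1-type genes had 197 to 345 with a median of 257. Over all protein-coding genes the medians were 404 and 255 per Mb. The differences of the medians, D2-type minus D1-type, were -27.1 and -16.6 per Mb, against a pooled SD among the genes of a class of 57.8 and 58.8. With a flank of 20 kb both differences changed sign, to 12.1 and 0.263 per Mb. Without Drd2 and Ebf1, the longest gene of each class, they widened to -78.1 per Mb in the 1.9-step set. In the 0.48-step set the difference became -59.1 per Mb. The SD among the 3 genes left in each class was 54.9 and 66.9 in turn. Such an SD is the spread of single genes and not an error of the difference.

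Ranked against genes of similar length, members of both classes were spread over most of the range. In 1.9-step density Adora2a stood at percentile 83.0, Drd2 at 69.2, Gpr6 at 31.9 and Penk at 29.1, against 88.1 for Drd1, 64.0 for Isl1, 53.4 for Tac1 and 23.1 for Ebf1. The class medians were 50.6 for the D2-type and 58.7 for the D1-type genes, and without Drd2 and Ebf1 they were 31.9 and 64.0. In 0.48-step density Gpr6 stood at 79.3, Penk at 38.4, Drd2 at 37.9 and Adora2a at 8.65, against 95.1 for Drd1, 77.8 for Tac1, 13.5 for Isl1 and 12.6 for Ebf1. The class medians of that set were 38.2 for the D2-type and 45.7 for the D1-type genes, and without Drd2 and Ebf1 they were 38.4 and 77.8. The order of the genes differed between the sets: Drd1 was first in both, whereas Adora2a was high in the 1.9-step set and low in the 0.48-step set. Gpr6 was the reverse of Adora2a.

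Summed 1.9-step signal and the highest signal put the D2-type median above the D1-type median. Summed 1.9-step signal per kb was 568 to 775 around the D2-type genes with a median of 643, against 552 to 791 with a median of 635 around the D1-type genes. The median percentiles were 43.0 and 37.7. With flanks of 100 kb that difference of 5.34 percentile points turned to -11.7, without Drd2 and Ebf1, the longest gene of each class, to -9.06, and with flanks of 20 kb it was 33.1. The highest signal was 11.4 at Adora2a and Gpr6 and 9.5 at Drd2 and Penk, against 11.4 at Tac1 and 9.5 at Drd1, Isl1 and Ebf1. The median percentiles of highest signal were 50.2 for the D2-type and 32.7 for the D1-type genes, a difference of 17.5, which was 35.0 with flanks of 20 kb and 32.9 without Drd2 and Ebf1. The members of the classes overlapped, from 22.2 to 72.2 in the D2-type and from 11.7 to 69.3 in the D1-type genes, and a height moves in coarse steps, so 1 step more at a single gene shifts these medians.

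**Figure D3:**
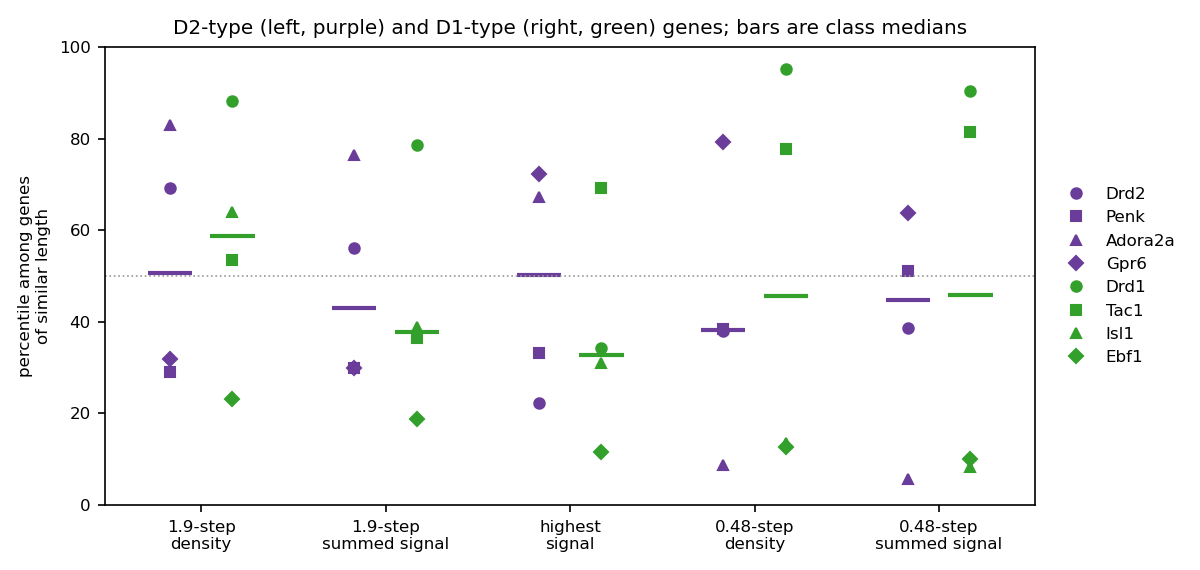
Percentile of each gene among the 2163 genes of similar length (y axis) for 5 measures (x axis), with D2-type genes on the left and D1-type genes on the right of each pair and bars at the class medians. The classes overlap in every measure, and the widest gap between medians is that of the highest signal, 50.2 for D2-type against 32.7 for D1-type genes.

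Tall regions were present around every gene, as around most genes in the genome. A region of 7.6 or more lay in the gene or its flanks at all 8 genes, against 98.1% of all protein-coding genes. A region of 9.5 or more lay in the gene or its flanks at all 4 D2-type and all 4 D1-type genes, against 90.0% of all genes. A region of 11.4 or more was found at 2 of 4 D2-type genes and 1 of 4 D1-type genes, against 51.6% of all genes. Inside the gene itself, a region of 7.6 or more was found at 3 of 4 in each class, with Gpr6 and Tac1 the exceptions, against 69.2% of all genes. Of the pooled 1.9-step regions, 46 of 205 or 22.4% around D2-type genes were 4 or more steps high (exact 95% binomial interval 16.9 to 28.8%), against 66 of 321 or 20.6% around D1-type genes (16.3 to 25.4%) and 22.7% of all such regions. At 5 or more steps the shares were 7.32% (4.15 to 11.8%) and 3.74% (1.95 to 6.44%), against 6.29% of all. These intervals cover counting error only and treat the regions of 4 genes as independent, and those of the 2 classes overlapped at both heights. Ebf1 alone gave 175 of the 321 D1-type regions and 36 of the 66 of 4 or more steps.

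Of the 15 regions of 9.5 or more around D2-type genes, 12 lay around the 2 genes on chromosome 10, 7 around Adora2a and 5 around Gpr6. Set against all 1.9-step regions of each gene, these were 7 of 56 at Adora2a, 5 of 37 at Gpr6, 2 of 74 at Drd2 and 1 of 38 at Penk. Among the D1-type genes the counts were 7 of 175 at Ebf1, 2 of 52 at Drd1, 2 of 49 at Isl1 and 1 of 45 at Tac1. Of all 1.9-step regions 6.29% were of this height. Summed 1.9-step signal in the 500 kb bins of Adora2a and Gpr6 was 1.23 and 0.953 times the median autosomal bin, within the range of 0.916 to 1.43 over the bins of all 8 genes. Tall regions around the D2-type genes were therefore unevenly divided among the 4, and 4 of the 7 around Adora2a lay in Specc1l.

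Near the starts the 2 classes could be compared only in part, since Penk and Adora2a have no listed start. A 1.9-step region came within 1 kb of a listed start at 0 of 2 D2-type genes and at 4 of 4 D1-type genes, against 72.6% of the 17274 genes with a listed start. Drd1 and Ebf1 had 2 listed starts each, and Drd2, Gpr6, Tac1 and Isl1 had 1 each, so the D1-type genes had more chances to be counted. Ebf1 counted only through its second start, since its first lay 1041 bp from the nearest 1.9-step region. At Drd2 that distance was 1081 bp, just outside the window too. For regions of 5.7 or more the counts were 0 of 2 and 3 of 4, against 55.3%, and for 7.6 or more they were 0 of 2 and 2 of 4 (Drd1 and Ebf1), against 25.0%. For the 0.48-step set the counts were 2 of 2 and 3 of 4, against 44.8%. When both ends of the gene were used, all 8 genes entered, and a region of 7.6 or more came within 1 kb of an end at 3 of 4 D2-type genes and 1 of 4 D1-type genes, against 38.9% of all genes. At an end, regions of 5.7 or more were found at 3 of 4 D2-type and 3 of 4 D1-type genes, against 73.9%, any 1.9-step region at 3 of 4 and 4 of 4, against 88.1%, and any 0.48-step region at 2 of 4 and 4 of 4, against 65.7%. At the ends the D2-type count was thus the higher at 7.6 or more, equal at 5.7 or more and the lower for any 1.9-step region. The counts at ends are not a repeat of those at starts. They add Penk, Adora2a and the far end of each gene, and leave out the second listed starts of Drd1 and Ebf1. Within 5 kb of a listed start, a region of 7.6 or more lay at 2 of 2 D2-type and 2 of 4 D1-type genes, against 63.4%, and within 1 kb a region of 9.5 or more at 0 of 2 and 0 of 4, against 8.06%. With so few genes these counts are a description.

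Gene bodies were compared with flanks by pooling the 4 genes of a class. In the 1.9-step set the D2-type genes held 418 regions per Mb inside the genes and 415 in the flanks, and the D1-type genes held 372 and 417.5. In the 0.48-step set the D2-type genes held 193 inside and 247.5 in the flanks, and the D1-type genes 220 and 265. The D2-type value inside genes rests largely on Drd2, with 30 of 39 regions of the 1.9-step set, and the D1-type value on Ebf1, with 143 of 154. Gene by gene there was no shared direction. In the 1.9-step set 2 of 4 D2-type genes (Adora2a and Gpr6) and 2 of 4 D1-type genes (Drd1 and Tac1) were less dense inside than in their flanks. In the 0.48-step set this held for 2 of 4 D2-type genes (Drd2 and Adora2a) and 1 of 4 D1-type genes (Ebf1), so 5 of the 8 genes ran against the pooled values of that set. Those 5 are short, and their directions rest on few regions inside the gene: 2 at Penk, 1 at Gpr6 and 3 each at Drd1, Tac1 and Isl1. A region that overlapped a gene by 1 bp counted as inside it, which raises the inside density of short genes most. In the 1.9-step set Ebf1 itself had a density of 367 per Mb inside the gene and 320 in its flanks, against the pooled direction of its class.

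Most 0.48-step regions lay apart from 1.9-step regions in both classes. Around D2-type genes 28 of 117 regions of the 0.48-step set, 23.9% (16.5 to 32.7%), overlapped a 1.9-step region by at least 1 bp, against 57 of 197 or 28.9% (22.7 to 35.8%) around D1-type genes and 27.7% of all 0.48-step regions. Those intervals too cover counting error only. Among single genes the count was lowest at Adora2a, 2 of 21, and the share highest at Isl1, 10 of 22. The other D2-type genes had 14 of 41 at Drd2, 6 of 25 at Penk and 6 of 30 at Gpr6, and the other D1-type genes 12 of 36 at Drd1, 6 of 32 at Tac1 and 29 of 107 at Ebf1. Of the 27 regions of 9.5 or more, 2 were overlapped by a 0.48-step region, against 17.7% of all 1.9-step regions of any height. These 2 lay at 49326167 to 49326552 upstream of Drd2 and at 41101158 to 41102075 upstream of Gpr6. The tallest 0.48-step regions around the 8 genes, with 2.4, lay 26.5 kb downstream of the Drd1 start and 32.2 kb downstream of the Isl1 start, and neither was overlapped by a 1.9-step region.

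Other genes of the same neurons were also spread widely over the ranking. Among 4 further D2-type genes the median percentile of 1.9-step density was 45.7, with Gpr52, an orphan receptor, at 64.6, Sp9, a zinc finger factor of the indirect pathway, at 48.2 and the kainate receptor subunit gene Grik3 lowest at 15.9. Among 4 further D1-type genes it was 50.2, with Chrm4, a muscarinic receptor, at 88.9, Eya1 at 64.4 and Slc35d3 lowest at 31.5. Of the further D2-type genes 1 of 4, and of the further D1-type genes 2 of 4, stood above percentile 50. Among 12 genes of both kinds of medium spiny neuron the median was 60.1 and 8 stood above 50. Pde1b, a calcium-dependent phosphodiesterase, was highest at 97.9, with 598 regions per Mb and a highest signal of 15.2, followed by the adenylyl cyclase gene Adcy5 at 83.7 and with Foxp1 lowest at 16.9. Pde1b also stood at 99.95 in the 0.48-step set. Chromosome 15, which holds Pde1b, stood at 1.24 times the autosomal median of 1.9-step regions and 0.992 times that of 0.48-step regions over its 500 kb bins, and the part of this in its rank was not tested. In the 0.48-step set the medians were 46.4 for the further D2-type genes, 49.2 for the further D1-type genes and 47.2 for the genes of both kinds. In highest signal the further D2-type genes had a median percentile of 58.3 and the further D1-type genes one of 75.8, the opposite order to that of the 8 genes.

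**Figure D4:**
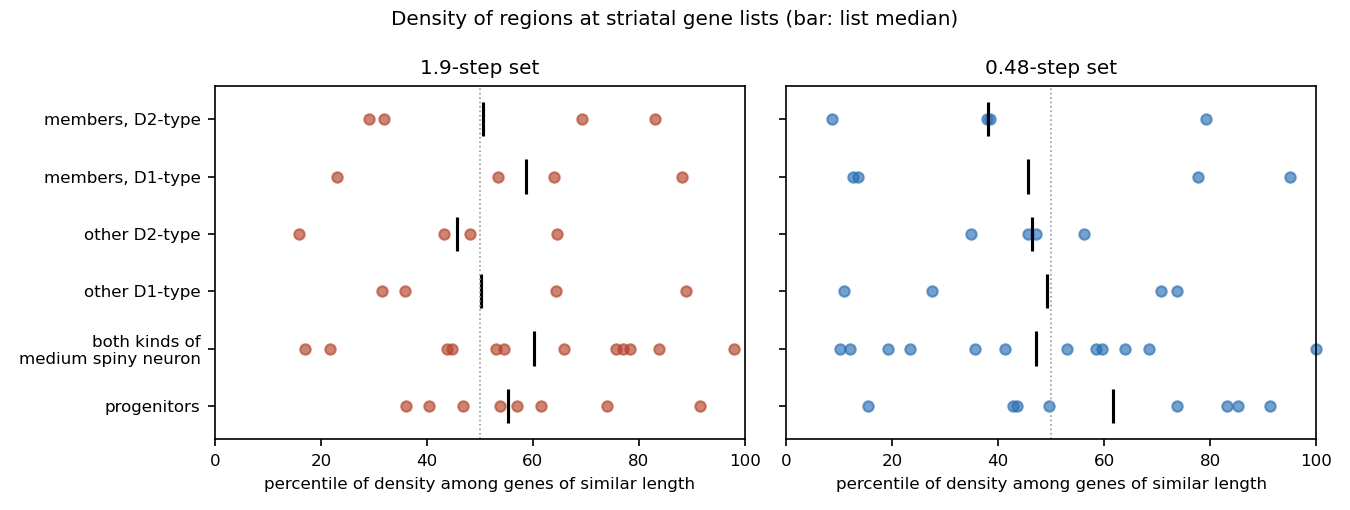
Percentile of the density of regions among genes of similar length (x axis) for the 8 genes by class and for 4 further gene lists (rows), with the 1.9-step set on the left and the 0.48-step set on the right. Each dot is a gene and each bar a list median. All list medians of the 1.9-step set lie between 45.7 and 60.1.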

How the data were processed

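The deposited table lists called regions without a header. The build is mm10 and the tools were SEACR, Bowtie2 and deepTools, per the submitters' processing notes. Not given in the sources used here: versions, parameters, which libraries were combined and whether IgG was used. Signal in the deposited columns is coverage as scaled by the authors: the highest value in a region, and the sum over its bases in signal times bp. No column belongs to a single library.

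Regions were assigned to a step set when the highest signal divided by 1.9 or 0.48 lay within 0.001 of a whole number; 3 regions fitted both or neither, and 0 of these lay at the 8 genes. Gene positions came from RefSeq, GRCm38.p6, and starts and strands from its promoter table, which covers 17274 of the genes. A region belonged to an interval if it overlapped it by 1 bp. Percentiles are mid-ranks among the 10% of genes nearest in length. Exact binomial intervals are at 95%. Counting was tested on simulated data. Genes named from wider lists were the 2 highest and 1 lowest in 1.9-step density percentile. 1 gene that this rule names is not reported here. Members and lists were chosen with earlier results of these data known. No p-value is given, since genes are not replicates. Alternatives were flank, placement, height, matching and gene choice. Python 3.11.15, numpy 2.4.6, pandas 2.3.3, scipy 1.17.1 and matplotlib 3.10.9 were used.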

Additional observations from a re-analysis of the deposited data

How the results depend on the processing

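No paired analysis was possible because no region belongs to a numbered library and the IgG group has 1 library. Of 55 alternative values of the D2-type minus D1-type comparisons and of the count at starts, 38 kept their sign and shifted by less than the spread among the genes of a class (for the share of tall regions, by less than the half-width of its binomial interval). Of these 38, the differences without the longest gene of each class still grew, to -78.1 per Mb and -32.1 percentile points in 1.9-step density and to -59.1 per Mb and -39.4 points in 0.48-step density. Placement by midpoint, also among the 38, left both density differences per Mb unchanged. The main differences were -27.1 and -16.6 per Mb in 1.9-step and 0.48-step density, and -8.16 and -7.49 points in their percentiles. They were 5.34 points for summed signal and 1.88 percentage points for the share of regions of 4 or more steps. Another 13 of the 55 values changed sign, and these follow. With flanks of 20 kb the density difference was 12.1 per Mb in the 1.9-step and 0.263 per Mb in the 0.48-step set, and their percentile differences were 5.73 and 1.64. With flanks of 100 kb the 0.48-step density difference was 7.02 per Mb and its percentile difference 11.7, that of summed 1.9-step signal was -11.7, and that of the share of regions of 4 or more steps -2.17 percentage points. Within gene bodies alone the 1.9-step percentile difference was 6.37 and the share difference -0.916. With regions of at least 3 steps the 0.48-step percentile difference was 4.85 and that of summed signal -7.51, and without the longest gene of each class the summed signal difference was -9.06. The one difference that kept its sign and shifted by more than the spread was that of summed signal, 33.1 with flanks of 20 kb. The difference in the percentile of highest signal lay between 13.6 and 35.0 in the alternatives, of which a minimum of 3 steps could not change it. Genes with a region of 7.6 or more within 1 kb of a start were 2 of the 6 with a listed start, against 25.0% of the 17274 such genes. This count became 4 of 6 within 5 kb (63.4% of such genes) and 0 of 6 for 9.5 or more (8.06%). At either end it was 4 of all 8 genes, against 38.9% of all protein-coding genes. The causes were not tested. The depth behind each signal is unknown.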

Other observations

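Progenitors of the lateral ganglionic eminence, from which both kinds of medium spiny neuron descend, had a median percentile of 55.4 in 1.9-step density over 8 genes, and 5 of the 8 stood above 50. The list holds several Dlx genes, some of them on the same chromosome. Their intervals may share regions, so the 8 values may not be separate, which was not tested. The homeobox gene Dlx6 stood at 74.0, and Gsx2, a homeobox factor of these progenitors, was lowest at 36.0. In the 0.48-step set the median percentile was 61.7, the highest of the 4 further lists. In highest signal it was 31.4, with 1 of the 8 above 50. The highest signal was 9.5 at Dlx6 and 7.6 at Gsx2.

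Six3 itself, which the cells overexpressed and which belongs to that list of 8 progenitor genes, stood at percentile 40.4 in 1.9-step density and 15.5 in 0.48-step density. The 45 and 23 regions in its interval corresponded to 400 and 204 per Mb, and its highest signal was 9.5.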
